A study of Mus musculus with 2 samples.

Results

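Long noncoding RNAs of opposite fates were followed in scRNA-Seq of spinal microglia. The set was given by name and held 8 of the 32285 genes counted: 3 that are retained in the nucleus (Malat1, Neat1 and Kcnq1ot1) and 5 that host small nucleolar RNAs (Gas5, Snhg1, Snhg6, Snhg8 and Snhg12). All 8 were detected in both libraries. The question was whether the 3 nuclear RNAs and the 5 snoRNA hosts part along the ribosomal protein mRNA content of a cell, along its depth, and between genotypes.

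Microglia were isolated from the lumbar spinal cord of mice aged 8 to 10 weeks, sorted as CD45lo, CD11b-high and CX3CR1-high, and captured in droplets, with 1 library for each genotype. The control library is labelled WT by the submitters, and the study's text gives its controls as Eif4ebp1 fl/fl. The 4E-BP1–cKO mice were Eif4ebp1 fl/fl:TMEM119CreERT2, in which Cre is driven from the microglial Tmem119 promoter, and 4-hydroxytamoxifen was given from P4 to P9 (0.25 mg per animal in total). The sources used here do not say how many mice stand behind each library. A cell was kept if over 300 genes were detected in it and if its mitochondrial genes took under 5% of its UMIs (unique molecular identifiers, which count captured RNA molecules once).

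This left 1147 control cells with 4803562 UMIs and 445 4E-BP1–cKO cells with 1734332 UMIs, at medians of 3053 and 2776 UMIs per cell, and no barcode was shared between the libraries. At least 3 of 10 microglial markers were detected in 94.6% of control and 90.8% of 4E-BP1–cKO cells, whereas at least 3 markers of any of 7 other classes were detected in at most 12 cells (oligodendrocyte markers, control). Eif4ebp1 itself had 95 UMIs (exact Poisson 95% interval, 76.9 to 116) in control and 51 UMIs (38.0 to 67.1) in 4E-BP1–cKO cells, or 19.8 and 29.4 per 1000000 UMIs (CPM). The libraries read the 3′ end of transcripts and the conditional allele concerns exon 2, so the deletion is not checked by these counts. With 1 library per genotype and no replicates, no test between genotypes was possible, and cells of 1 library are not replicates. Intervals are 95% intervals for counting error alone. They are exact, except those of differences between group medians, which are normal approximations. A difference was called when it passed 1.5-fold, and log2 ratios were formed after adding 1 CPM.

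Malat1 accumulates in nuclear speckles, Neat1 builds the paraspeckle, and Kcnq1ot1 is an imprinted transcript that stays on chromatin at the Kcnq1 locus. snoRNA hosts work differently: their introns are processed into snoRNAs, which guide chemical modification of ribosomal RNA, while the spliced exons are exported, can be engaged by ribosomes and are known targets of nonsense-mediated decay. Gas5 and several of its relatives start, like ribosomal protein mRNAs, with a pyrimidine stretch, the 5′ terminal oligopyrimidine (TOP) motif, through which mTORC1 controls translation.

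The RefSeq annotation of GRCm38.p6, the assembly that mm10 is built on, places Malat1 (chr19:5795690-5802672) and Neat1 (chr19:5824708-5845480) next to each other, and Kcnq1ot1 at chr7:143213111-143296547. It lists no snoRNA within any of these 3. Gas5 (chr1:161034601-161038539) and Snhg1 (chr19:8723487-8726326) each enclose 8 annotated snoRNAs, Snhg12 (chr4:132308678-132311024) encloses 4, and Snhg8 (chr3:123507552-123508336) and Snhg6 (chr1:9942025-9944118) enclose 1 each, Snora24 and Snord87. Kcnq1ot1 lies inside the span of Kcnq1, which had 14 UMIs in control and 9 in 4E-BP1–cKO cells, Gas5 shares bases with the protein-coding Zbtb37 (97 UMIs in control cells), and Snhg6 with the protein-coding Mcmdc2 (29 UMIs). The sources used here do not state whether strand was used in counting, so reads in those overlaps cannot be assigned with certainty.

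The 30 bases around the annotated start are shown for the 6 members with an entry in the RefSeq promoter table, because the TOP motif lies at the start. In each line the first 15 bases precede the annotated start, the last 15 begin at it, the sequence runs 5′ to 3′ on the transcribed strand, and capitals mark the longest run of C and T.
Snhg12, chr4:132308663-132308692, plus strand: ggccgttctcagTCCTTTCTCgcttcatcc
Snhg8, chr3:123508322-123508351, minus strand: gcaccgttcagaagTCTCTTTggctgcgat
Gas5, downstream start, chr1:161035151-161035180, plus strand: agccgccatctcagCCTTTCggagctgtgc
Gas5, upstream start, chr1:161034586-161034615, plus strand: agggggcgggCCCgcgagctcgacagcccg
Snhg1, chr19:8723472-8723501, plus strand: gttgttcttgtcggcctcaTTTTTCCTTgt
Malat1, chr19:5802658-5802687, minus strand: CTCCgggctctgcgtcaggcattcaggcag
Kcnq1ot1, chr7:143296533-143296562, minus strand: agccgttgtcgctaggaggaacagttgCCT

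A C followed by at least 5 bases that are each C or T was found in these windows for 3 of the 4 snoRNA hosts with an entry (Snhg12, Snhg8 and the downstream start of Gas5) and for neither Malat1 nor Kcnq1ot1. Snhg1 has a run of 9 pyrimidines from base 5 of the annotated transcript. No C in that run is followed by 5 more pyrimidines, so it falls outside this definition. That count is by gene, and the upstream start of Gas5 held no such stretch. Counted by start instead, 22.5% of all 32851 starts in the table held it in the same window, as did 39 of the 78 starts of ribosomal protein genes. On the opposite strand the stretch was found at 25.5% of all starts, at 7.69% of the starts of ribosomal protein genes, and at those of Kcnq1ot1 and the upstream start of Gas5. These are matches of letters and do not show how the RNAs were translated.

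Malat1 was read in nearly every cell. It had 34955 CPM in control (interval, 34788 to 35122) and 36737 CPM in 4E-BP1–cKO cells (36452 to 37023), that is, 3.5% and 3.67% of all UMIs, and it was detected in 98.7% and 98.9% of cells. Neat1 had 376 CPM (358 to 393) in control and 283 CPM (258 to 309) in 4E-BP1–cKO cells. Kcnq1ot1 had 167 CPM (156 to 179) and 198 CPM (178 to 220), and 1 control cell held 64 of its 804 UMIs.

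Among the hosts, Gas5, which carries the most annotated snoRNAs along with Snhg1, had 212 CPM (199 to 225) in control and 255 CPM (232 to 280) in 4E-BP1–cKO cells. Snhg8 had 94.9 and 101 CPM, Snhg1 66.0 and 89.9 CPM, and Snhg12 65.6 and 83.0 CPM. Snhg6 was thinly sampled, with 75 UMIs in control and 47 in 4E-BP1–cKO cells (15.6 and 27.1 CPM). Apart from Malat1, no member was detected in more than 49.5% of the cells of a library (Neat1, control), and these shares move with depth. No cell type that lacks these RNAs was present, so the part of free RNA in the shares could not be measured. Levels were not compared between genes.

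The 3 nuclear RNAs and the 5 hosts separated along the ribosomal share, the percentage of a cell's UMIs that fall on ribosomal protein genes. Its median was 2.22% in control and 3.53% in 4E-BP1–cKO cells. Cells with at least 3% (high) were 490 of 1147 in control, 42.7% (exact binomial interval, 39.8 to 45.6%), and 233 of 445 in 4E-BP1–cKO, 52.4% (47.6 to 57.1%). All 5 hosts were past 1.5-fold higher in the high class in both libraries, beside 19.8% of all 8494 genes with at least 50 UMIs in the control library and 21.9% of 5049 genes in the 4E-BP1–cKO library. All 3 nuclear RNAs were lower in the high class in both libraries. Past 1.5-fold were Malat1 alone in control, where 19.0% of all genes were lower by that much, and Neat1 and Kcnq1ot1 in 4E-BP1–cKO, where 26.8% were. In either direction, 6 of the 8 members were past 1.5-fold in control and 7 in 4E-BP1–cKO, beside 38.8% and 48.7% of all genes. All 8 had at least 50 UMIs in control, and 7 did in 4E-BP1–cKO, where Snhg6 had 47. The call of Snhg12 ended with a limit of 5% in place of 3% (log2 ratio, 0.27 in control and 0.08 in 4E-BP1–cKO). In 4E-BP1–cKO, that of Snhg1 ended with the mean within depth classes (0.25) and with thinning (0.54), and that of Kcnq1ot1 held under 6 of 13 alternatives.

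**Figure D1:**
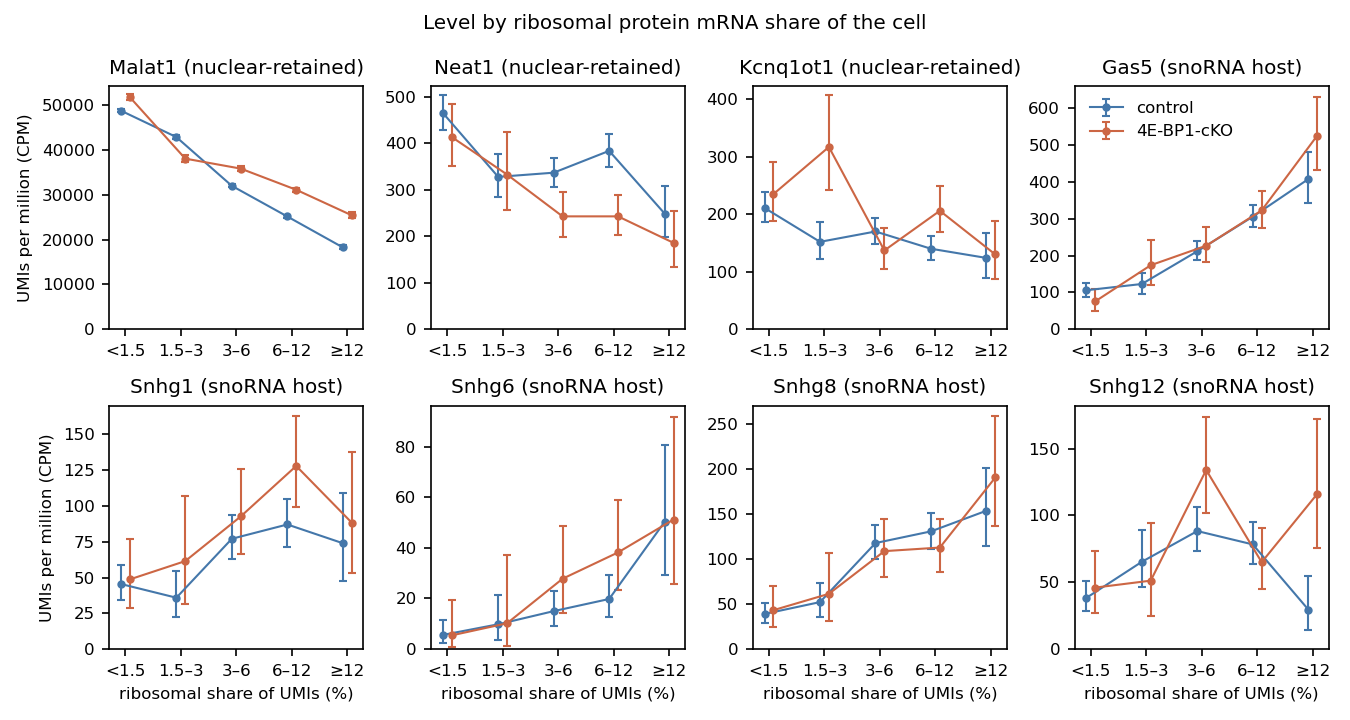
Level of each RNA (y axis, CPM from 0) in cells grouped by ribosomal share (x axis, % of UMIs), with 1 line per library and exact Poisson 95% intervals as bars. Malat1 descends from the first to the last group in both libraries (48719 to 18243 CPM in control and 51739 to 25401 CPM in 4E-BP1-cKO), whereas Gas5 climbs (106 to 408 CPM and 75.8 to 526 CPM).

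For Malat1 the level in control cells was 46786 CPM in the low class and 27444 CPM in the high class, a ratio of 0.587 (0.581 to 0.592). In 4E-BP1–cKO cells it was 46999 and 31781 CPM, a ratio of 0.676 (0.666 to 0.687), just short of the limit. Over 5 groups of rising ribosomal share (under 1.5%, 1.5 to under 3%, 3 to under 6%, 6 to under 12% and at least 12%), each group was lower than the one before in both libraries, as the plot of levels by ribosomal share shows. Neat1 had 421 CPM in the low and 347 CPM in the high class of control cells (ratio, 0.824; 0.750 to 0.906), and 386 and 233 CPM in 4E-BP1–cKO cells (0.603; 0.502 to 0.724). Kcnq1ot1 had 192 and 152 CPM in control (0.791; 0.687 to 0.912) and 264 and 167 CPM in 4E-BP1–cKO (0.632; 0.508 to 0.788). Kcnq1ot1 did not descend at every step in either library. Neat1 did not rise at any step in 4E-BP1–cKO, but in control its level at 6 to under 12% (384 CPM; 350 to 420) was above that at 1.5 to under 3% (328 CPM; 284 to 377).

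For Gas5, the host that followed the ribosomal share most evenly, control cells had 112 CPM in the low and 275 CPM in the high class (ratio, 2.47; 2.12 to 2.89). The 4E-BP1–cKO cells had 110 and 325 CPM (2.96; 2.26 to 3.94). Gas5 was higher in each of the 5 groups than in the one before, in both libraries. Snhg8 had 43.4 and 128 CPM in control (2.94; 2.31 to 3.78) and 49.6 and 126 CPM in 4E-BP1–cKO (2.54; 1.68 to 3.95), and it too climbed at every step. Snhg1 had 42.4 and 81.0 CPM in control (1.91; 1.48 to 2.50) and 53.1 and 108 CPM in 4E-BP1–cKO (2.03; 1.35 to 3.13), with its highest level at 6 to under 12% rather than in the last group.

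Snhg6 had 6.97 and 21.1 CPM in control (3.03; 1.65 to 6.0) and 7.08 and 36.8 CPM in 4E-BP1–cKO (5.19; 1.89 to 19.9), where the low class held 4 of its UMIs. Snhg12 had the smallest ratio of the hosts in control, 47.2 and 77.3 CPM (1.64; 1.27 to 2.12), and 47.8 and 100 CPM in 4E-BP1–cKO (2.09; 1.37 to 3.31). Its control level did not keep rising with ribosomal share: it was 88.3 CPM (73.1 to 106) at 3 to under 6% and 29.6 CPM (14.2 to 54.4) at 12% or more. The 4E-BP1–cKO level did not keep rising either, with 134 CPM (102 to 174) at 3 to under 6% and 65.0 CPM (45.0 to 90.8) at 6 to under 12%. In the last group it was 116 CPM (75.3 to 172), so the libraries parted there.

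As groups, the 5 hosts had a median log2 ratio of 1.30 in control and 1.32 in 4E-BP1–cKO, and the 3 nuclear RNAs one of -0.34 and -0.66. All genes with at least 50 UMIs had medians of -0.12 and -0.17. The 2 groups of RNAs were therefore 1.63 log2 units apart in control (1.34 to 1.93, from the counts of Gas5 and Kcnq1ot1, which hold the medians) and 1.98 apart in 4E-BP1–cKO (1.32 to 2.64, from Snhg8 and Kcnq1ot1). Those intervals are normal approximations and leave out the counts of the other members. Without the cell of each class with the most UMIs of the RNA in question, the difference was 1.82 and 2.06, and the median of the nuclear RNAs in control was -0.51.

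Ribosomal protein UMIs are part of the total that CPM divides by, so the same cells were also described by a ratio within the set, which needs no total. UMIs of the 5 hosts were divided by those of Neat1 and Kcnq1ot1. In control this ratio was 0.346 (0.302 to 0.396) below 1.5% ribosomal share, 0.595 (0.491 to 0.720) and 1.01 (0.906 to 1.12) in the next groups, 1.19 (1.07 to 1.32) at 6 to under 12%, and 1.92 (1.54 to 2.40) at 12% or more. In 4E-BP1–cKO it was 0.338 (0.259 to 0.436), 0.551 (0.406 to 0.744), 1.55 (1.27 to 1.90), 1.49 (1.26 to 1.76) and 3.07 (2.33 to 4.10). Thus the balance moved from nuclear RNAs toward hosts across the groups, and the intervals of the libraries overlapped in every group except 3 to under 6%. Per 1000 Malat1 UMIs, host UMIs went from 4.82 to 39.3 in control and from 4.24 to 38.3 in 4E-BP1–cKO between the first and the last group. With ribosomal protein and mitochondrial UMIs taken out of the total, the log2 ratio of Malat1 was -0.68 in control and -0.46 in 4E-BP1–cKO.

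**Figure D2:**
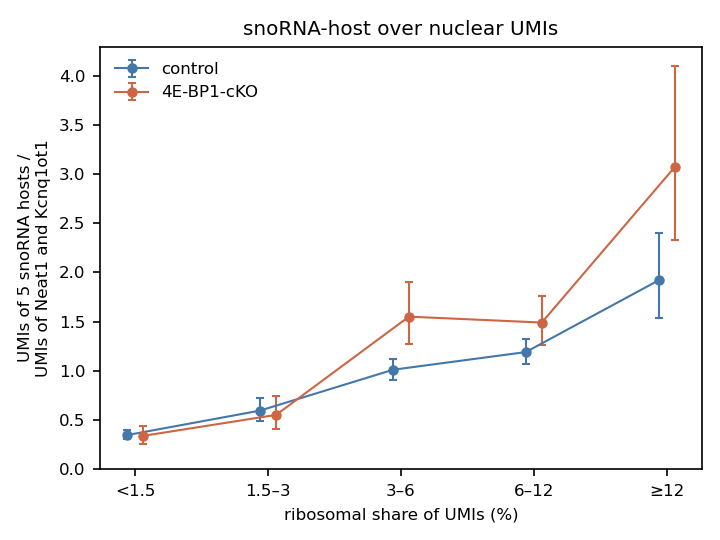
UMIs of the 5 snoRNA hosts divided by UMIs of Neat1 and Kcnq1ot1 (y axis, from 0) in cells grouped by ribosomal share (x axis, % of UMIs). Points are summed over the cells of a group, and bars are exact 95% intervals for counting error. The ratio was near 0.34 in both libraries in the first group and reached 1.92 in control and 3.07 in 4E-BP1-cKO in the last.

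High-class cells were also deeper (median 5512 against 2354 UMIs in control, and 4716 against 1972 in 4E-BP1–cKO), so the comparison was repeated among cells of like depth. Among cells with 1500 to under 5000 UMIs, the 5 hosts were higher and the 3 nuclear RNAs lower in the high class in both libraries. The ratio there was 2.58 (2.03 to 3.28) for Gas5 and 0.514 (0.414 to 0.633) for Neat1 in control, and 3.76 (2.36 to 6.21) and 0.432 (0.300 to 0.614) in 4E-BP1–cKO. Malat1 was closer to 1 in this range, at 0.779 (0.766 to 0.793) and 0.833 (0.813 to 0.854).

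Among control cells with at least 5000 UMIs the nuclear RNAs no longer went together. Malat1 was 0.743 (0.730 to 0.757), Neat1 was 1.10 (0.921 to 1.32) and Kcnq1ot1 0.909 (0.709 to 1.18), with intervals that include 1, and Snhg12 was 0.795 (0.564 to 1.14) while the other 4 hosts lay between 1.76 and 2.99. In 4E-BP1–cKO all 3 were lower, with Neat1 at 0.608 (0.470 to 0.795), Kcnq1ot1 at 0.480 (0.362 to 0.643) and Malat1 at 0.936 (0.910 to 0.963). In this library, 19 low-class cells were that deep, and all 5 hosts lay between 1.90 and 3.05.

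Among cells with under 1500 UMIs counts were small, and Malat1 had its lowest ratios there, 0.322 (0.304 to 0.341) in control and 0.321 (0.299 to 0.343) in 4E-BP1–cKO. Gas5 was at 3.20 (1.42 to 7.40) and 2.26 (0.917 to 5.77), and Neat1 at 0.479 (0.242 to 0.878) and 0.484 (0.140 to 1.35). Opposite to the pattern in all cells, Kcnq1ot1 was at 2.79 (0.804 to 10.8) and Snhg1 at 0.348 (0.00736 to 3.11) in 4E-BP1–cKO, on 13 and 6 UMIs in all, with intervals that include 1.

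**Figure D3:**
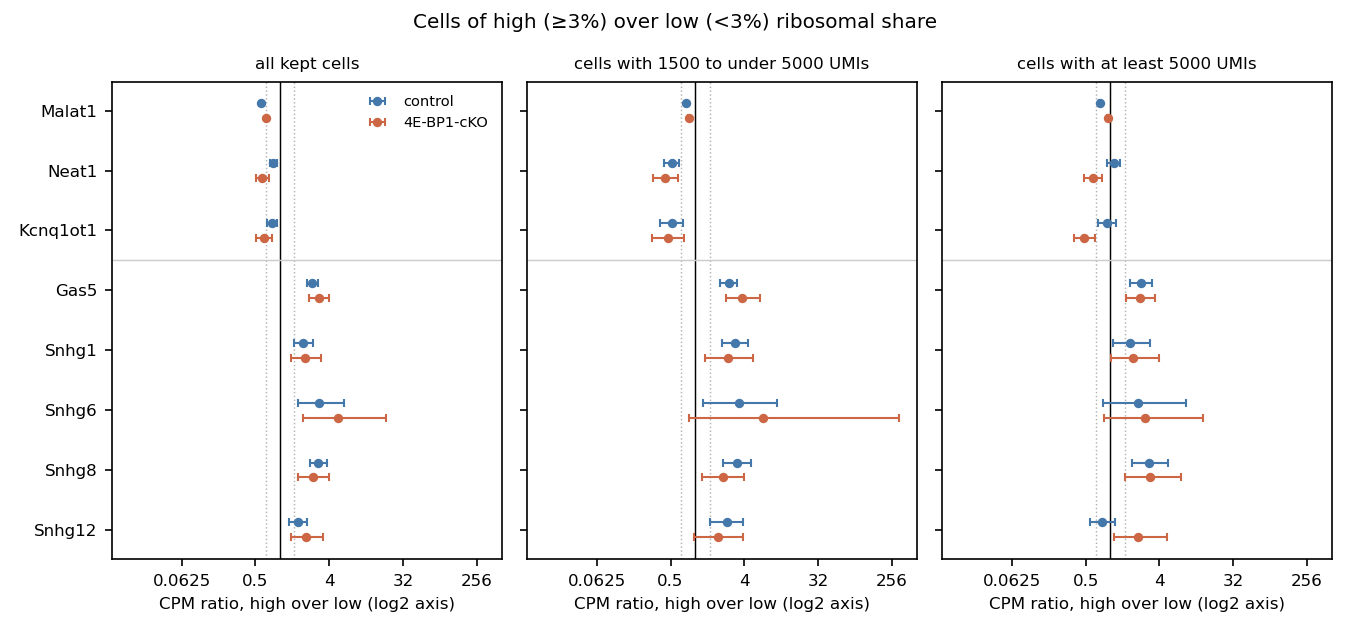
Ratio of CPM in cells of high (at least 3%) over low ribosomal share for each RNA (x axis, log2 scale), in all kept cells and in the 2 deeper ranges (under 1500 UMIs is not drawn). Points are ratios, bars exact 95% intervals for counting error, the solid line marks 1 and the dotted lines 1.5-fold, and the gray line parts nuclear RNAs (above) from hosts (below). In these panels hosts lie to the right of 1 except Snhg12 in deep control cells (0.795).

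To set shares of cells side by side at 1 depth, 872 UMIs were drawn at random from each cell. Cells with fewer were dropped, 89 of the control and 70 of the 4E-BP1–cKO library. Gas5 was then detected in 9.12% of low-class and 22.5% of high-class control cells, and in 12.1% and 24.3% of 4E-BP1–cKO cells. Unthinned, these shares were 23.4% and 62.0%, and 19.8% and 60.5%. Neat1 went the other way once thinned, with 25.9% and 21.8% of control cells (intervals 22.6 to 29.5% and 18.0 to 26.0%) and 23.1% and 12.4% of 4E-BP1–cKO cells (17.1 to 30.1% and 8.17 to 17.7%). In control those intervals overlap. Unthinned, Neat1 was seen in 47.5% and 52.2% of control cells, so its order between the classes turned with depth.

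Malat1 has enough UMIs to be read cell by cell. Its median share of a cell's UMIs was 5.09% in the low and 2.68% in the high class of control, and 5.44% and 3.16% in 4E-BP1–cKO. In UMIs, however, the high class held more: a median of 173 against 119 per cell in control and 162 against 106 in 4E-BP1–cKO. By these medians, high-class cells, which were also deeper, held more Malat1 UMIs and a smaller Malat1 share. Across cells, Spearman's rho of the Malat1 share with the ribosomal share was -0.53 (1147 control cells) and -0.51 (445 4E-BP1–cKO cells), and with total UMIs -0.37 and -0.31. The cells share a library and both shares have the same total, so these values are descriptions. With ribosomal protein and mitochondrial UMIs left out of the total of the Malat1 share, rho with the ribosomal share was -0.49 and -0.44.

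**Figure D4:**
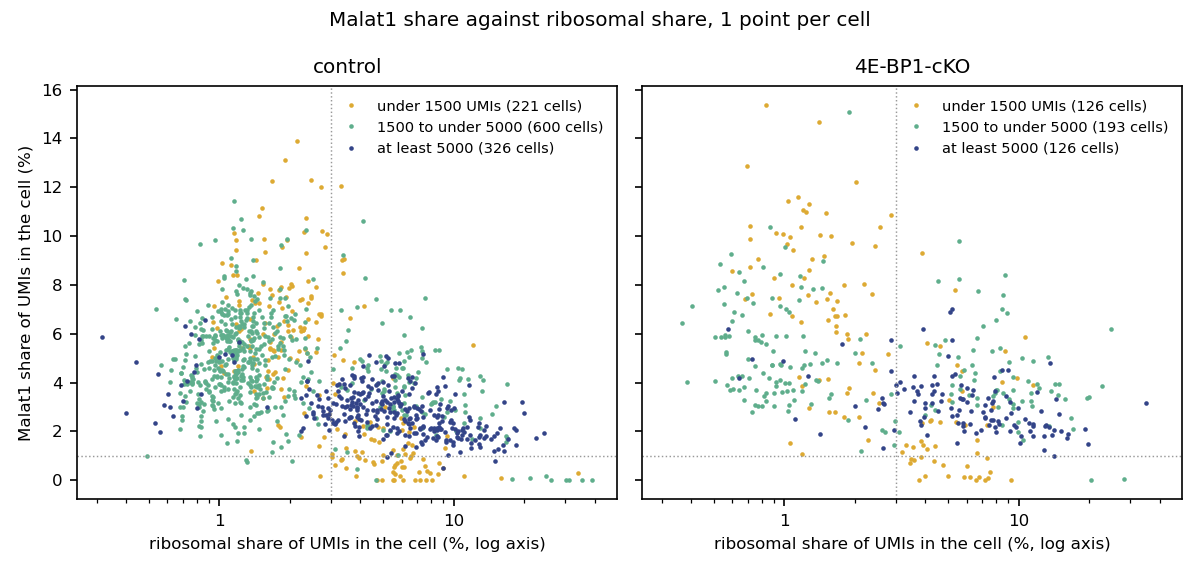
Malat1 share of a cell's UMIs (y axis, %) against its ribosomal share (x axis, %, log scale), with 1 point per kept cell, colored by total UMIs. Dotted lines mark 3% ribosomal share and 1% Malat1; of the 61 control and 22 4E-BP1-cKO cells below 1% Malat1, 56 and 22 lie to the right of the 3% line, and many of them had under 1500 UMIs.

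Nearly all cells poor in Malat1 were of high ribosomal share. Under 1% Malat1 was seen in 56 of 490 high-class (11.4%) and 5 of 657 low-class control cells, and in 22 of 233 high-class (9.44%) and 0 of 212 low-class 4E-BP1–cKO cells. In the 15 control and 5 4E-BP1–cKO cells without any Malat1 UMI, the ribosomal share was high as well. Most high-class cells under 1% were shallow, at a median of 694.5 UMIs in control and 705.0 in 4E-BP1–cKO, against 6125 and 5065 for the remaining high-class cells. Those with under 1500 UMIs, 43 of the 56 and 19 of the 22, held 29683 of 78841 and 14559 of 27854 UMIs. Levels summed over the set therefore weigh its deeper cells heavily. As a set, the cells under 1% were not poor in microglial markers, which summed to 12861 CPM against 12522 CPM in control and 12027 against 11554 CPM in 4E-BP1–cKO. At least 3 of the 10 markers were detected in 54 of the 56 and 20 of the 22 cells.

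Neat1, which took no part in choosing these cells, was also scarce in them. The 56 control cells held 3 Neat1 UMIs (38.1 CPM, against 355 CPM in the other high-class cells; ratio, 0.107; 0.0220 to 0.314). The 22 4E-BP1–cKO cells held 0, which allows up to 108 CPM, against 238 CPM. The 5 hosts together were at 545 against 583 CPM in control (ratio, 0.935; 0.674 to 1.26) and at 826 against 692 CPM in 4E-BP1–cKO (1.19; 0.752 to 1.80). They were thus not scarce as Neat1 was, whereas Malat1 was low by the choice of cells. Kcnq1ot1, with 6 and 4 UMIs in these cells, was at 0.495 (0.181 to 1.09) and 0.858 (0.232 to 2.23).

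The cells were then compared with high-class cells of similar depth, under 1500 UMIs. These differed in microglial markers too, at 14486 CPM in cells under 1% Malat1 against 8498 CPM in control. In 4E-BP1–cKO the sums were 11471 against 10509 CPM. At least 3 markers were detected in 41 of 43 against 31 of 44 control cells, and in 17 of 19 against 20 of 30 4E-BP1–cKO cells. Neat1 and Kcnq1ot1 together were at 0.301 (0.0733 to 0.934) in the 43 control cells under 1% Malat1, relative to the 44 with more. In the 19 such 4E-BP1–cKO cells they were listed at 0 UMIs against 13 in 30 cells (upper limit of the ratio, 0.592). Neat1 alone had 2 against 11 UMIs in control, a ratio of 0.219 with an interval from 0.0236 to about 1. In 4E-BP1–cKO Neat1 had 0 against 5 UMIs (upper limit of the ratio, 1.97) and Kcnq1ot1 had 0 against 8 (1.06). These counts are too small to settle whether Neat1 by itself was scarce at this depth. The hosts were at 1.41 (0.713 to 2.80) and 1.62 (0.584 to 4.45), on at most 21 UMIs a side. Median mitochondrial shares in these shallow cells were 1.28% against 0.935% in control and 1.31% against 0.761% in 4E-BP1–cKO. The part of cell damage, or of other cells among the compared barcodes, in these differences was not tested.

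By depth, the members were less orderly. Cells with at least 5000 UMIs were set against cells with under 1500. Past 1.5-fold were 3 of the 8 members in control, near the 37.7% of all genes with at least 50 UMIs. In 4E-BP1–cKO 6 of the 8 were, beside 36.6% of all such genes. Among these calls, the interval included 1 for Snhg12 in control (0.947 to 3.75). In 4E-BP1–cKO it did so for Snhg12 (0.767 to 4.83), Snhg1 (0.824 to 5.17) and Snhg6 (0.699 to 167). Snhg6 was below 50 UMIs there, with 39 in deep and 1 in shallow cells. Malat1 was lower in the deep cells, at 26925 against 51698 CPM in control (ratio, 0.521; 0.511 to 0.531) and 29382 against 57072 CPM in 4E-BP1–cKO (0.515; 0.501 to 0.529). Within the low ribosomal class the ratio was 0.533 and 0.409, but within the high class it was 1.23 and 1.19, so the direction turned. Gas5 was higher in the deep cells, 249 against 126 CPM in control (1.98; 1.36 to 3.0) and 299 against 206 CPM in 4E-BP1–cKO (1.46; 0.953 to 2.33). With classes of under 1000 and at least 8000 UMIs the control log2 ratio of Gas5 was 0.05 rather than 0.98, which ended that call. Within the high class Gas5 stood at 1.11 and 1.05, with intervals that include 1. Neat1 had ratios of 1.05 (0.833 to 1.34) and 1.40 (0.913 to 2.24). Snhg8 had 1.11 (0.724 to 1.77) in control and 6.25 (1.69 to 52.2) in 4E-BP1–cKO, where the shallow cells held 2 of its UMIs. Oligodendrocyte markers summed to 92.1 CPM in deep and 207 CPM in shallow control cells, and to 82.4 and 947 CPM in 4E-BP1–cKO. Endothelial, astrocyte and lymphocyte markers summed higher in the deep cells of control but lower in those of 4E-BP1–cKO. The part of other cells in the differences by depth was not tested.

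Between the genotypes the members differed less than between cells. Snhg6 alone was past 1.5-fold, beside 10.7% of all 9368 genes with at least 50 UMIs in both libraries together. It was higher in the 4E-BP1–cKO library (1.74; 1.18 to 2.53; log2 ratio, 0.76). That call ended with a pseudocount of 10 CPM (0.53), with the mean of cell shares (0.54) and with the mean within ribosomal share classes (0.40). The log2 ratios of the other 4 hosts were 0.44 for Snhg1, 0.34 for Snhg12, 0.27 for Gas5 and 0.09 for Snhg8, and the interval of the ratio included 1 for Snhg8. Neat1 was the only member lower in 4E-BP1–cKO, at 0.752 (0.679 to 0.832), while Kcnq1ot1 was at 1.19 (1.04 to 1.35) and Malat1 at 1.05 (1.04 to 1.06). Genotype, mice, sort and capture cannot be told apart with 1 library each.

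Because more 4E-BP1–cKO cells were of high ribosomal share, the libraries were also compared within each class. In the low class, the log2 ratios of the hosts were between -0.02 (Gas5) and 0.32 (Snhg1), all with intervals that include 1, and Malat1 was at 46999 against 46786 CPM. In the high class, Snhg6 was at 1.74 (1.15 to 2.61), Snhg1 at 1.33 (1.06 to 1.66), Snhg12 at 1.29 (1.03 to 1.63), Gas5 at 1.18 (1.04 to 1.33) and Snhg8 at 0.985 (0.808 to 1.19). Neat1 was at 0.917 (0.786 to 1.07) in the low class and at 0.671 (0.584 to 0.767) in the high class, where it had 233 CPM against 347 CPM. Kcnq1ot1 differed in the low class, at 264 against 192 CPM (1.37; 1.13 to 1.67), and was at 1.10 (0.924 to 1.30) in the high class. Host UMIs over those of Neat1 and Kcnq1ot1 were 0.410 (0.368 to 0.457) in control and 0.411 (0.338 to 0.499) in 4E-BP1–cKO in the low class, and 1.17 (1.09 to 1.25) and 1.74 (1.55 to 1.95) in the high class.

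**Figure D5:**
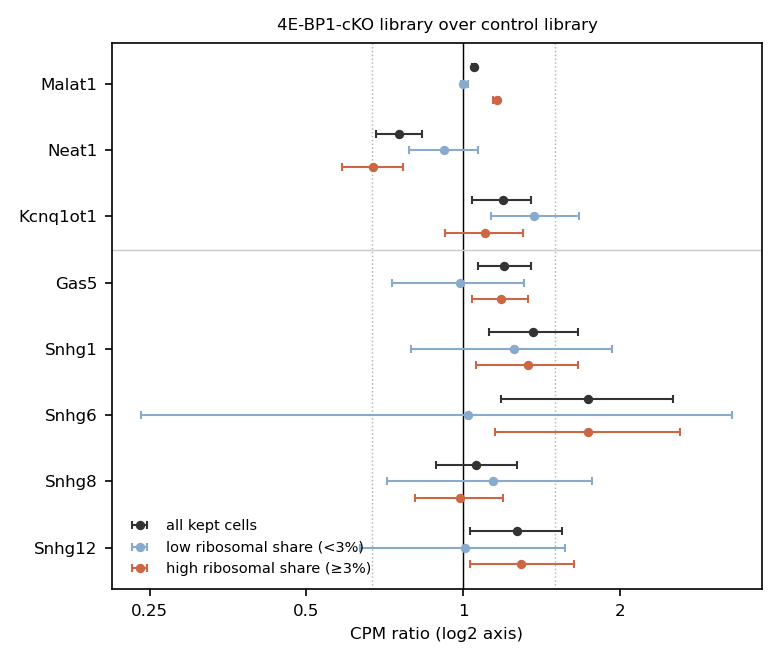
Ratio of CPM in the 4E-BP1-cKO library over the control library for each RNA (x axis, log2 scale), in all kept cells, in cells of low and in cells of high ribosomal share. Points are ratios and bars exact 95% intervals for counting error; Neat1 lies left of 1 in all 3, at 0.752, 0.917 and 0.671.

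Related genes were described from lists by how many passed 1.5-fold between high and low ribosomal share, among genes with at least 50 UMIs. Of all such genes, 19.8% were higher and 19.0% lower in control, and 21.9% and 26.8% in 4E-BP1–cKO, with medians of -0.12 and -0.17. Of 16 TOP mRNAs that encode no ribosomal protein, 14 were higher in control and 16 in 4E-BP1–cKO (median log2 ratio, 1.76 and 1.73). Eef1a1, a translation elongation factor, was at 1.83 and 1.79, and Tpt1, a small cytoplasmic protein, at 2.54 and 2.63. Among the other noncoding snoRNA hosts, 3 of 7 were higher and 1 lower in control, and 1 of 3 was higher in 4E-BP1–cKO. Zfas1, which hosts C/D box snoRNAs, was at 1.24 and 1.66, while Snhg5 was at 0.35 and 0.83. Of the protein-coding hosts, 3 of 12 and 5 of 12 were higher, the first near the share of all genes, with medians of 0.36 and 0.51. Of them, Hspa8, a heat shock chaperone, was at 0.75 and 1.08, and the nucleolar protein Ncl at 0.25 and 0.19.

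Proteins that assemble snoRNAs into particles were higher for 5 of 9 (1 lower) in control and 3 of 6 in 4E-BP1–cKO. Nop58, a core protein of C/D box particles, was at 1.09 and 0.84. The methyltransferase of the same particles, Fbl, was at -0.19 and 0.46. Factors of nonsense-mediated decay had medians of -0.44 and -0.69. In control 2 of 9 were lower and 1 higher, near the 19.0% of all genes that were lower, and in 4E-BP1–cKO 4 of 6 were lower, beside 26.8% of all genes. The kinase Smg1 was at -0.57 and -0.88 and the endonuclease Smg6 at -0.71 and -0.91.

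On the nuclear side, 5 of 11 other nuclear or chromatin lncRNAs were lower and 1 higher in control, and 3 of 7 were lower in 4E-BP1–cKO. Dleu2 was at -0.72 and -0.89, and Lncpint at -0.73 and -1.04. Most mRNAs for proteins of these compartments stayed within 1.5-fold, as did Neat1 in control (-0.28) and Malat1 in 4E-BP1–cKO (-0.56). None of 6 nuclear speckle scaffold proteins passed 1.5-fold in either library, and Son was at -0.40 and -0.36. Of the paraspeckle proteins, 3 of 10 were higher in control and 1 higher and 1 lower of 8 in 4E-BP1–cKO, with Sfpq at -0.16 and -0.37.

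Genes induced by dissociation also moved with the ribosomal share: 10 of 16 were higher in control and 12 of 16 in 4E-BP1–cKO, beside 19.8% and 21.9% of all genes, and their summed level was 29441 against 17504 CPM and 37904 against 19862 CPM. Microglial markers summed to 12531 against 7165 CPM and 11565 against 7028 CPM, and none of the 10 was at 0 in any class. At least 3 of the 5 endothelial markers were detected in 4 control cells, all of the high class. Over all cells of a class, endothelial markers summed to 96.7 against 40.2 CPM and to 37.6 against 15.9 CPM in 4E-BP1–cKO, with 2 of the markers at 0 there in the high class. Oligodendrocyte markers summed to 93.6 against 79.9 CPM in control and to 166 against 88.5 CPM in 4E-BP1–cKO. Of the 12 control cells with at least 3 of them, 9 were of the high class. Astrocyte, neuron and border-associated macrophage markers summed lower in the high than in the low class of both libraries. Lymphocyte markers were at or below 7.70 CPM in every class. The part of dissociation and of other cells in the members' differences was not tested.

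The genes most like each member were sought across 27 pools of cells, made by library, ribosomal share and depth with at least 10 cells each, among 2461 genes with at least 500 UMIs. By Pearson correlation of log2(CPM + 1), Gas5 was nearest to the ribosomal protein genes Rpl18 (0.87), Rpl13a (0.86) and Rps13 (0.85), and Snhg8 to the elongation factor gene Eef1d (0.90), Atp5b (0.84) and Mrfap1 (0.78). Malat1 was nearest to Gm35188 (0.89), Dip2b (0.87) and Gm46367 (0.85), Neat1 to Arih1 (0.90), Atp2b1 (0.85) and Zswim6 (0.81), and Kcnq1ot1 to Atp6v1b2 (0.93), Abl2 (0.92) and Ralgapa1 (0.92). With log2 ribosomal share itself, Gas5 stood at 0.82, Snhg6 at 0.63, Snhg8 at 0.48, Snhg1 at 0.35 and Snhg12 at 0.20. Malat1 stood at -0.68, Neat1 at -0.59 and Kcnq1ot1 at -0.26. These values join the libraries, which differed for some members. Kcnq1ot1 was at -0.68 over the control and -0.20 over the cKO pools, and Snhg1 at 0.62 and 0.19. Snhg8 was at 0.82 and 0.51. Snhg12 was at -0.08 and 0.53, the only member whose sign differed between the libraries. The pools were cut by ribosomal share, so ribosomal protein genes differ between them by construction. The nearness of Gas5 to such genes, and the correlations with ribosomal share, are therefore no separate test of the differences by ribosomal share. Pools of a library also share its capture and differ in depth, so these are descriptions. Snhg1, Snhg6 and Snhg12 had too few UMIs for the search of nearest genes.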

How the data were processed

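scRNA-Seq of sorted spinal microglia was available as 2 libraries, 1 for each genotype. The files the authors deposited hold whole UMI counts, without normalization, for every gene in every called barcode. Reads had been aligned to mm10 with Cell Ranger, whose version is 8.0.1 per the file headers. The annotation release, the use of strand and the counting of intronic reads are not given in the sources used here. The pipeline's cell calling had been applied (smallest barcodes, 500 and 501 UMIs), but no filter on genes, mitochondrial share or doublets.

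Cells needed over 300 detected genes and a mitochondrial share under 5%, which removed 69 control and 29 4E-BP1–cKO barcodes. Doublets were not removed. Scrublet (scanpy 1.11.5; expected rate, 0.8% per 1000 barcodes) marked 4 and 11 cells, against 10.5 and 1.58 expected, and their removal was an alternative. The study removed doublets with scDblFinder, which was not run here. After its filters the study held fewer cells of each genotype than were kept here, so cells that it left out remain in these comparisons. UMIs were summed over cells and scaled to 1000000 (CPM), ratios were given an exact conditional Poisson 95% interval, and log2 ratios used a pseudocount of 1 CPM. The ribosomal share was the percentage of UMIs on 85 genes of cytoplasmic ribosomal proteins. Cells under and over 3%, and under 1500 and at least 5000 UMIs, were compared. Genes with at least 50 UMIs served as background, and a zero count allows up to 3 counts. Python 3.11.15, numpy 2.4.6, scipy 1.17.1 and pandas 2.3.3 were used. The direction of the ratio and the coverage of its interval were tested on simulated Poisson counts, and the other steps were not simulated. No p-value is given, because cells are not replicates.

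The members and the gene lists were chosen with earlier results of these data known. At most 4 genes per list, those with the most UMIs, could be named, and the 3 most correlated genes for each member with at least 500 UMIs. The ratio of host to nuclear UMIs, the cells under 1% Malat1, and the genes overlapping the members were chosen after values were seen. The alternatives were other totals, TMM factors (edgeR), doublet removal, a mitochondrial limit of 10%, at least 500 genes, ribosomal limits of 2% and 5%, depth limits of 1000 and 8000 UMIs, a pseudocount of 10 CPM, the mean of cell shares, thinning, and means within classes. Totals without ribosomal protein UMIs alone, and removal of the cell with the most UMIs of a member, were added after seeing the data.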

Additional observations from a re-analysis of the deposited data

Results flagged for a closer look

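Kcnq1ot1 went in opposite directions with depth in the 2 libraries. In control, cells with at least 5000 UMIs had 165 CPM and cells with under 1500 UMIs had 180 CPM, a log2 ratio of -0.12. In 4E-BP1–cKO they had 219 and 116 CPM, a log2 ratio of 0.91, so that the libraries were 1.03 log2 units apart. The difference was not tested. The shallow cells held 40 Kcnq1ot1 UMIs in control and 13 in 4E-BP1–cKO, and the interval of the control ratio included 1 (0.664 to 1.30). With depth classes of under 1000 and at least 8000 UMIs the control log2 ratio was 0.61.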

How the results depend on the processing

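No paired analysis was possible because each genotype has 1 library. Of 84 values of the member counts, median differences and list counts under the alternatives, 76 stayed within the limit set for no change, as did 393 of 456 member log2 ratios. That limit was a 1.5-fold change for counts and the interval of the main value for median differences and log2 ratios. Thinly counted members have wide intervals, so staying within the limit says little for them. The count of members past 1.5-fold between libraries (1, Snhg6) was 0 with a pseudocount of 10 CPM, the mean of cell shares, or the mean within ribosomal share classes, and 2 with thinning, which added Snhg1. In control, the difference between host and nuclear medians (1.63) was 1.17 with a ribosomal limit of 5%, 1.19 with a pseudocount of 10 CPM, 2.0 with the mean of cell shares, and 2.05 with the mean within depth classes. The log2 ratio of Snhg12 by depth in control (0.81) was reversed, to -0.09, with depth limits of 1000 and 8000 UMIs, where Gas5 moved from 0.98 to 0.05 and Neat1 from 0.07 to 1.04. Members short of 1.5-fold by depth in control also turned sign: Neat1 was -0.35 with a mitochondrial limit of 10%, and with the mean within ribosomal share classes Snhg8 went from 0.14 to -0.61, Snhg1 from 0.29 to -0.15 and Snhg6 from 0.47 to -0.02. The causes were not tested. By ribosomal share, the sign of every member held in both libraries under all 13 alternatives. Snhg6, with 122 UMIs in all, limits what can be said of it, and counting intervals leave out the spread between mice.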

Other observations

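The barcodes that the filters removed, 69 in control and 29 in 4E-BP1–cKO and mostly above the mitochondrial limit (65 and 25), had a different balance of these RNAs. Malat1 was at 27967 CPM (26991 to 28970) in the removed control barcodes, against 34955 CPM in the kept cells, and at 23515 CPM (21948 to 25163) against 36737 CPM in 4E-BP1–cKO. Neat1 was higher in the removed barcodes, at 677 CPM (533 to 849) against 376 CPM and at 534 CPM (321 to 834) against 283 CPM. Gas5 was at 81.3 CPM (37.2 to 154) against 212 CPM and at 140 CPM (45.6 to 328) against 255 CPM. Malat1 and Neat1 thus parted in these barcodes, on 75 and 19 Neat1 UMIs. Kcnq1ot1 was at 208 CPM (132 to 312) against 167 CPM in control. In 4E-BP1–cKO it was at 84.3 CPM (17.4 to 246) against 198 CPM, on 3 UMIs. Mitochondrial UMIs are part of the CPM total, so most of these barcodes were chosen in a way that lowers the CPM of other genes. The size of that part was not measured. In kept cells under 1% Malat1, where Malat1 was low by choice, Neat1 was low as well against the other high-class cells, which were mostly deeper.

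Kcnq1ot1 was carried unevenly, though not alone among the members. A single control cell held 7.96% of its UMIs, whereas the top cell held 3.20% in 4E-BP1–cKO. In 4E-BP1–cKO the top cell held 6.94% of the Neat1 UMIs and 8.51% of those of Snhg6, which had 47.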
